A study of Mus musculus with 4 samples.

Results

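The 37 genes carried by mouse mitochondrial DNA (mtDNA) were examined in kidney RNA, chosen as all genes whose GENCODE symbol starts with mt- among the 54532 genes listed for each library. They comprised 13 messenger RNA (mRNA) genes, 2 ribosomal RNA (rRNA) genes and 22 transfer RNA (tRNA) genes, and all 37 lay on the mitochondrial chromosome (chrM, GRCm38, GENCODE M21). Whole kidneys came from C57BL/6J wild-type (WT) mice and from mice of that background lacking Zbp1 (Zbp1-KO) through a CRISPR-Cas9 deletion of exons 2 to 8, with 2 libraries per genotype (WT 1, WT 2, Zbp1-KO 1 and Zbp1-KO 2). Mice of both genotypes, the WT controls included, had been injected intraperitoneally at 8 weeks with 500 µL pristane, an oil used to bring on lupus-like autoimmune disease, and tissue was collected 8 months afterwards. The WT mice were bought in and the Zbp1-KO mice were made by another supplier, so genotype and source cannot be told apart. No pristane-free kidneys were analysed here.

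mtDNA is a circle that is transcribed from both strands as long RNAs. The tRNAs that lie between the other genes are cut out of them, releasing mRNAs and rRNAs, most of which are then polyadenylated. Its mRNAs encode core subunits of respiratory complexes I, III, IV and V, whose other subunits come from nuclear genes, and its rRNAs and tRNAs serve the ribosomes inside the organelle. Proximal tubules of the kidney are rich in mitochondria. The protein made by Zbp1 binds nucleic acids in the Z conformation, and the comparison asked what its loss changes in the kidney in this disease model.

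Several mt- genes share sequence with each other or with the nuclear genome, and the stretches concerned are shown first. mt-Atp8 and mt-Atp6, which encode both mtDNA-borne subunits of complex V, share 43 bases, given in capitals within chrM:7897-7999 on the plus strand.
mt-Atp8 and mt-Atp6: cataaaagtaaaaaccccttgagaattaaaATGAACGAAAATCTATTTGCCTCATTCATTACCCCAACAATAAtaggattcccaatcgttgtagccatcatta
A read inside the capitals could belong to either gene. mt-Nd4l and mt-Nd4 likewise share 7 bases, and mt-Nd5 and mt-Nd6 share 14 bases on opposite strands. For 3 of the 13 mRNA genes, mt-Co3, mt-Nd4 and mt-Cytb, the annotated length leaves 1 base (capital) beyond the last whole codon. The final 30 bases of each are shown because such an mRNA obtains its stop codon by polyadenylation, the feature on which the RNA was selected.
mt-Co3: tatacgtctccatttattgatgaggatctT
mt-Nd4: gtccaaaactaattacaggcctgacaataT
mt-Cytb: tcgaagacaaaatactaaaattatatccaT
These stretches lie at chrM:9361-9390, chrM:11515-11544 and chrM:15259-15288, on the plus strand.

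A nuclear copy of part of mtDNA was found among the GENCODE M21 transcripts. On the minus strand of chromosome 1, 7 annotated unprocessed pseudogenes between 24611535 and 24616197 matched the mitochondrial chromosome from base 6390 to base 11042, in the same order as the mt- genes. Gm28661 was identical to 681 of the 684 bases of mt-Co2, Gm10925 to 678 of the 681 bases of mt-Atp6, Gm28437 to 783 of the 784 bases of mt-Co3 and Gm10222 to 294 of the 297 bases of mt-Nd4l. Gm28439 was identical to the initial 876 of the 1378 bases of mt-Nd4. Only 2 substitutions were found in the 7 matches. Gm28438 matched 345 of the 348 bases of mt-Nd3 with T3C, and Gm29216 matched the last 483 of the 1545 bases of mt-Co1 with A1066T, positions being counted from 1 at the 5′ end of the mt- gene. The stretches of 40 bases around both substitutions are shown with the substituted base in capitals, to illustrate how little separates a gene from its copy.
mt-Nd3: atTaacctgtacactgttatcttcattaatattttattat
Gm28438: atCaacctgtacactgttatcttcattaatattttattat
mt-Co1: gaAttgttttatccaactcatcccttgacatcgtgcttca
Gm29216: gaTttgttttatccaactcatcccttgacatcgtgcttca
The mt-Nd3 stretch lies at chrM:9459-9498 and that of Gm28438 at chr1:24613080-24613119, and the mt-Co1 stretch lies at chrM:6391-6430 and that of Gm29216 at chr1:24616148-24616187, with the copies read from the minus strand.

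By position, 11 of the 37 genes fell wholly within this copied span (mt-Co2, mt-Atp8, mt-Atp6, mt-Co3, mt-Nd3, mt-Nd4l and the tRNA genes mt-Ts1, mt-Td, mt-Tk, mt-Tg and mt-Tr), mt-Co1 and mt-Nd4 fell in it with part of their length, and 24 lay outside. Of all windows of 150 bases, the read length of the study, 99.4% in mt-Co2, 99.4% in mt-Atp6, 99.8% in mt-Co3, 97.97% in mt-Nd4l and 97.0% in mt-Nd3 occurred unchanged in a nuclear transcript. The share was 59.1% in mt-Nd4 and 23.6% in mt-Co1, and 0% in the remaining mRNA genes and both rRNA genes. For mt-Atp8 and the tRNA genes in the span, which also stood at 0%, no annotated pseudogene covers the matching place beyond the bases that mt-Atp8 shares with mt-Atp6, and unannotated sequence was not searched. The authors counted only read pairs that mapped to 1 place, so pairs lying entirely in such stretches had no unique place.

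The libraries held 9878776 to 12921925 counts, of which 5669408 to 7944018 fell on mt- genes. The 95% Wilson interval of that share was at most 0.0612 percentage points wide in any library, and a count of 0 allowed up to 0.221 to 0.323 CPM (counts per 1000000, with library sizes scaled by TMM), taking 3 counts as the limit, both covering counting error only. Zbp1, the targeted gene, had 94 and 125 counts in the WT and 18 and 0 in the knockout libraries. Its log2 fold change was −3.64 ± 0.89 (SE), yet edgeR did not call it (unadjusted p = 0.00153, adjusted p = 0.999), so with 2 libraries per genotype a gene that was not called may still differ. Nothing in the labels says how the libraries of a genotype relate to animals beyond their numbers, so p-values measure the spread between these libraries.

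The share of a library on mt- genes was 57.4% and 61.5% for WT and 49.5% and 59.5% for Zbp1-KO. The lowest share was that of Zbp1-KO 1, and Zbp1-KO 2 lay between the WT libraries, so the groups overlapped. The difference of means, −4.97 percentage points, gave p = 0.667 in a two-sided exact permutation test, which cannot go below 0.333 with 2 libraries against 2. Without Zbp1-KO 1 the difference turned to 0.0128 percentage points. In whole tissue, fewer cells rich in mitochondria and less mitochondrial RNA per cell cannot be told apart. The 5 mRNA genes outside the copied span took 28.7 and 30.02% in the WT and 25.2 and 29.5% in the knockout libraries, again with overlap, whereas the 6 mRNA genes wholly inside it took 0.757 and 0.813% in the WT and 0.363 and 0.692% in the knockout libraries, with both Zbp1-KO libraries below both WT libraries.

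**Figure D1:**
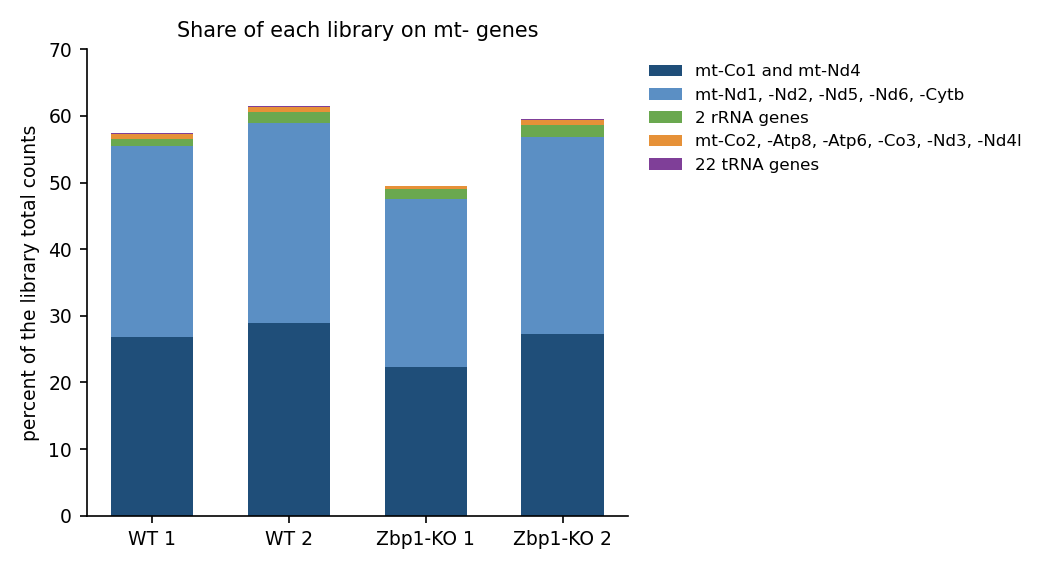
Percent of each library's total counts on groups of mt- genes, stacked in bars that start at 0, with 1 bar per library. The WT bars reach 57.4% and 61.5% and the Zbp1-KO bars 49.5% and 59.5%, and the genes wholly in the copied span form a thin band of under 1% in all 4 libraries.

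Levels were compared between genes per length, as counts per kilobase scaled to an mt- total of 1000000 counts. mt-Co1, the catalytic core subunit of complex IV, had the highest level in all 4 libraries, with 235742 and 234655 in the WT and 220525 and 230748 in the knockout libraries. mt-Cytb, the complex III subunit cytochrome b, came next (161793 to 168300 over the 4 libraries), followed by the complex I subunits mt-Nd1 (131456 to 150133), mt-Nd2 (85285 to 95258) and mt-Nd4 (73501 to 80769). Over the full gene length, these top 5 genes kept their order in all 4 libraries and their ranges did not overlap. The place of mt-Nd4 depended on the length used, since only 502 of its 1378 bases, and 1062 of the 1545 bases of mt-Co1, lie outside the copied span. Divided by those lengths alone, as if no counted pair lay wholly in the copied span, the level of mt-Nd4 was 201762 to 221713, above mt-Cytb, and that of mt-Co1 was 320820 to 342958, still the highest. mt-Nd6, the only mRNA gene on the light strand (minus in the annotation), and mt-Nd5 ranged from 33769.8 to 41136 and from 30099.7 to 38384, respectively, and exchanged places in WT 2. The study's methods call the libraries strand-specific but name a kit that does not mark strand, and the strand setting of the counting was not given in the sources used here, so reads of mt-Nd6 cannot be told apart with certainty from those of the opposite strand.

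The rRNA genes lay lower in these libraries, which had been made from polyadenylated RNA. mt-Rnr1 (12S rRNA) had a level of 7637 and 10724 in the WT and 12960.2 and 13236 in the knockout libraries, and mt-Rnr2 (16S rRNA) had 7246 and 10867 in the WT and 10819 and 12102 in the knockout libraries, and their ranges overlapped. Below them came the 6 mRNA genes wholly in the copied span. mt-Co2 and mt-Co3, partners of mt-Co1 in complex IV, ranged over 3892 to 8092 and 2536 to 3999.7, mt-Atp6 over 2812 to 7960.3, mt-Nd3 over 1673 to 2250.3, mt-Nd4l over 417 to 874 and mt-Atp8 over 15.02 to 78.4. The highest value among these 6 genes, 8092 for mt-Co2 in Zbp1-KO 2, was below the lowest value among the other 7 mRNA genes, 30099.7 for mt-Nd5 in Zbp1-KO 1. Neighbours in this order that did not differ beyond their ranges were mt-Nd6 and mt-Nd5, mt-Rnr1 and mt-Rnr2, mt-Rnr2 and mt-Co2, mt-Co2 and mt-Atp6, and mt-Atp6 and mt-Co3.

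**Figure D2:**
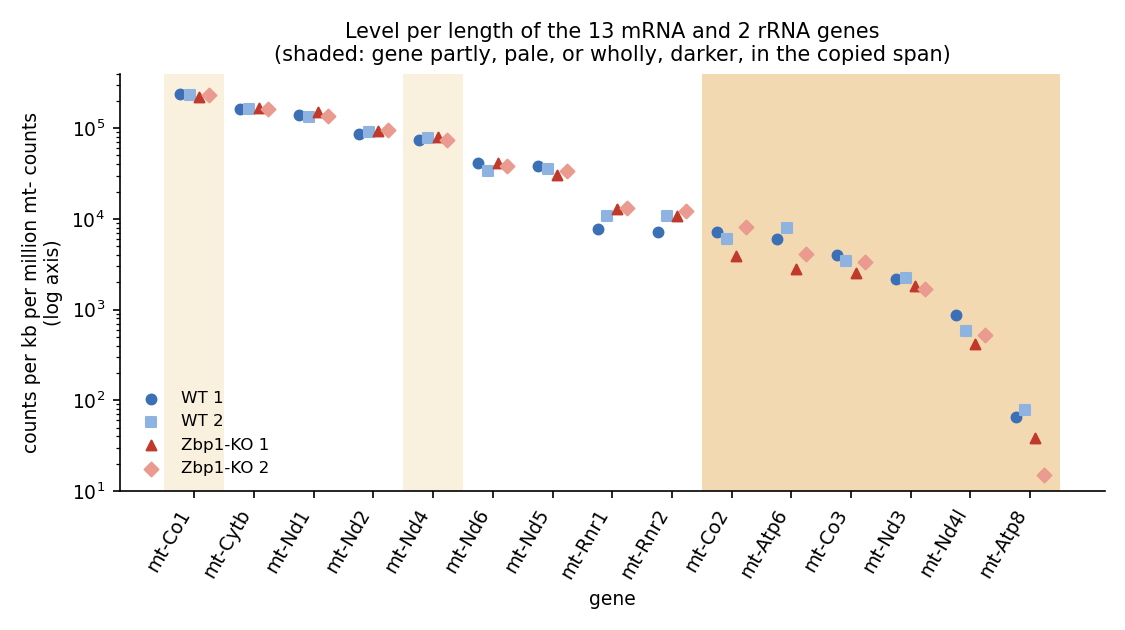
Level of the 13 mRNA and 2 rRNA genes in counts per kilobase, scaled to an mt- total of 1000000 counts (log axis), with 1 point per library and genes ordered by mean. The 6 genes wholly in the copied span, on darker shading, fill the low end, from 8092 for the highest mt-Co2 value down to 15.02 for the lowest mt-Atp8 value.

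The counts of the pseudogenes on chromosome 1 were then set beside those of the mt- genes they match. Gm10925 had 25349 and 33991 counts in the WT and 40251 and 21348 in the knockout libraries, against 29918 and 43064 counts in the WT and 10856 and 16225 in the knockout libraries for mt-Atp6. Of the counts of this pair, mt-Atp6 held 54.1 and 55.9% in the WT and 21.2 and 43.2% in the knockout libraries, and both Zbp1-KO libraries lay below both WT libraries. Gm28437 had 36253 and 38426 counts in the WT and 40193 and 33510 in the knockout libraries, and of this pair mt-Co3 held 38.5 and 36.0% in the WT and 21.9 and 31.3% in the knockout libraries. Gm28438 had 5930 and 8537 counts in the WT and 10466 and 6359 in the knockout libraries, and of this pair mt-Nd3 held 47.7 and 42.2% in the WT and 25.5 and 35.0% in the knockout libraries. In these 3 pairs the groups did not overlap (two-sided exact permutation p = 0.333, the smallest possible). For mt-Co2 the share was 44.2 and 49.9% in the WT and 31.7 and 56.5% in the knockout libraries, and for mt-Nd4l it was 21.7 and 49.0% in the WT and 26.5 and 52.0% in the knockout libraries, with overlapping groups in both. Zbp1-KO 1 had the lowest share in 4 of the 5 pairs, mt-Nd4l being the exception. mt-Co1 and mt-Nd4, which have long stretches outside the copied span, held at least 98.6% of the counts of their pairs in all 4 libraries. The copies themselves took 1.10% to 1.39% of a library. In the edgeR test the 7 pseudogenes were not called either (adjusted p = 0.999 each), with log2 fold changes from −1.50 for Gm10222 to 0.27 for Gm28438.

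**Figure D3:**
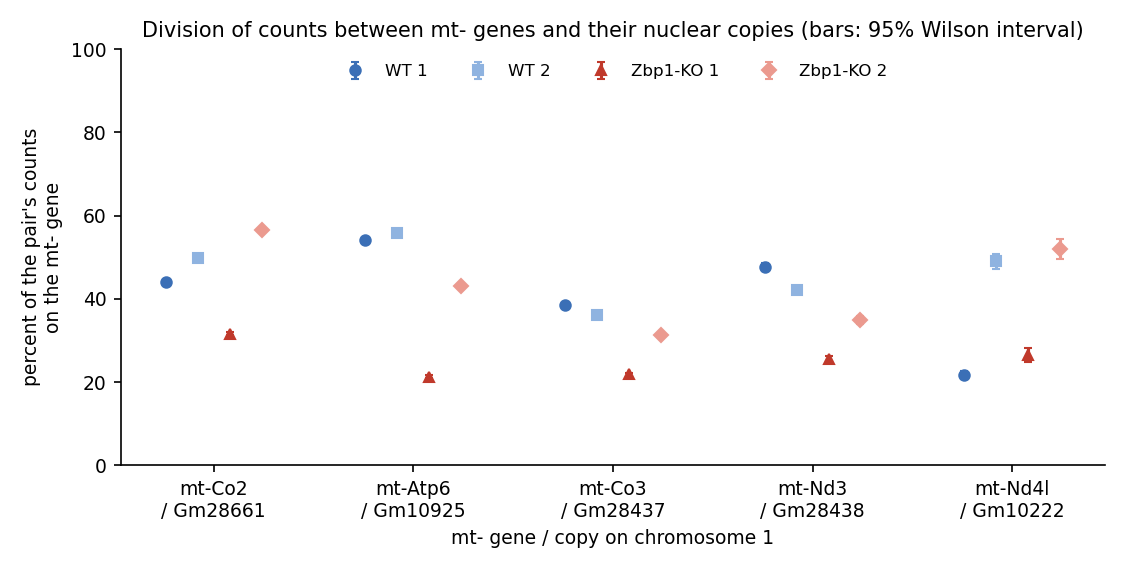
Percent of the summed counts of each pair that lay on the mt- gene rather than on its copy on chromosome 1, with 1 point per library and 95% Wilson intervals (counting error only). In the mt-Atp6 pair the WT libraries sat at 54.1% and 55.9% and the Zbp1-KO libraries at 21.2% and 43.2%, whereas the groups overlapped for mt-Co2 and mt-Nd4l.

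Other annotated nuclear copies differed more from mtDNA and had few counts. On chromosome 2, Gm13340, with 97.6% identity to mt-Co1, had 1237 and 1273 counts in the WT and 717 and 1474 in the knockout libraries, Gm13339, with 96.7% identity to mt-Nd2, had 140 and 230 counts in the WT and 328 and 186 in the knockout libraries, and Gm13341, similar to mt-Co2, had 39 and 29 counts in the WT and 21 and 30 in the knockout libraries. Gm4076 on chromosome 13, similar to mt-Nd5, had 43 and 39 counts in the WT and 21 and 32 in the knockout libraries. Gm11408 on chromosome 4, similar to mt-Nd6, reached at most 11 counts.

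Differential expression was examined with the edgeR quasi-likelihood test over all 14908 genes that passed the filter on low counts, 32 of the 37 mt- genes among them. None of the 32 was called at an adjusted p under 0.05 (adjusted p = 0.999 for each), where 0.0134% of all genes were called. The exact test of edgeR and the Wald test of DESeq2 also called 0 of them, whereas 2, mt-Atp6 and mt-Nd4l, were called lower when every gene with at least 1 count was kept. In that fit, 27 of all 22065 genes were called lower and 14 higher. mt-Tt, 1 of the 32, passed the filter through the WT libraries alone, so it could only come out lower, and it is left out of the counts that follow. At an unadjusted p under 0.05, 4 of the other 31 mt- genes were lower in Zbp1-KO and 0 were higher. Of all genes tested, without the 352 that passed the filter through 1 genotype alone, 1.72% were lower at that threshold. These 4 were mt-Atp6, mt-Atp8, mt-Nd4l and mt-Nd3, which lie wholly in the copied span. All 13 mRNA genes had a negative log2 fold change, from −1.82 to −0.16, although only 8 did relative to the mt- total, and mt-Co2, mt-Nd1, mt-Nd2 and mt-Nd6 turned positive without Zbp1-KO 1. Without Zbp1-KO 2, all 13 mRNA genes had a negative log2 fold change, from −1.93 to −0.44. The median over the 31 genes was −0.31, against −0.0061 over all genes tested, and over all 32 it was −0.016 without Zbp1-KO 1. Both Zbp1-KO libraries lay below both WT libraries for 8 of the 31 genes and above them for 1, and 15.6% of all genes, counted in the same way, had both Zbp1-KO values below both WT values.

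Complex V was represented by mt-Atp6 and mt-Atp8. mt-Atp6, the membrane subunit that forms part of the proton path, had 2406 and 3683 CPM in the WT and 800.5 and 1748 CPM in the knockout libraries. Both Zbp1-KO values were below both WT values, and Zbp1-KO 1 was the lowest. The group means were 3045 ± 903 CPM for WT and 1274 ± 669.8 CPM for Zbp1-KO (SD, n = 2 each), and the log2 fold change was −1.26 ± 0.32 (SE), with an unadjusted p of 0.00204 and, in edgeR, an adjusted p of 0.999. It was called when every gene with at least 1 count was kept (adjusted p = 2.43e-08 in edgeR), but not with library totals alone (adjusted p = 0.999). Without Zbp1-KO 2 the log2 fold change was −1.93. Summed with the counts of Gm10925, the log2 fold change was −0.50 ± 0.21, with an unadjusted p of 0.0328 and, in edgeR, an adjusted p of 0.999. mt-Atp8, which pairs with mt-Atp6 in the membrane part of the enzyme, had only 96 and 127 counts in the WT and 44 and 18 in the knockout libraries. How pairs that overlap both genes were counted is not given in the sources used here, and they may be missing from both. The groups did not overlap, and the log2 fold change was −1.82 ± 0.50 (SE), with an unadjusted p of 0.00347 and, in edgeR, an adjusted p of 0.999.

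The complex I subunits comprised genes outside or partly in the copied span and 2 genes within it. mt-Nd1, mt-Nd2 and mt-Nd4 belong to the membrane arm of the complex. mt-Nd1 had 76999.7 and 85475 CPM in the WT and 60063 and 83009.5 CPM in the knockout libraries. mt-Nd2 had 51538 and 63378 CPM in the WT and 40465 and 62580 CPM in the knockout libraries, and mt-Nd4 had 59980 and 72423 CPM in the WT and 46528 and 64103 CPM in the knockout libraries. For each of the 3, Zbp1-KO 1 was the lowest library and Zbp1-KO 2 lay between the WT libraries, and the log2 fold changes were −0.18 ± 0.20, −0.16 ± 0.23 and −0.26 ± 0.21 (SE). mt-Nd6 showed overlap as well, with 12429 and 11908 CPM in the WT and 8919.9 and 12594 CPM in the knockout libraries and a log2 fold change of −0.18 ± 0.20. mt-Nd5 had 40760.3 and 44073 CPM in the WT and 22951 and 39007 CPM in the knockout libraries, with both Zbp1-KO values lower and a log2 fold change of −0.45 ± 0.24 (SE, unadjusted p = 0.0810 in the edgeR test). Within the copied span, mt-Nd3 had 435 and 532 CPM in the WT and 264 and 368 CPM in the knockout libraries and mt-Nd4l had 151 and 117 CPM in the WT and 51.8 and 99.7 CPM in the knockout libraries. In both genes the groups were separate, and the log2 fold changes were −0.61 ± 0.21 and −0.83 ± 0.27 (SE), with unadjusted p of 0.0124 and 0.0110 and adjusted p of 0.999 in the edgeR test. With the counts of their copies added, the values were −0.058 ± 0.19 and −1.27 ± 0.36, with unadjusted p of 0.771 and 0.00426 and adjusted p of 0.999 in the edgeR test. In the latter pair, Gm10222 had 6788 counts in WT 1 against 855 to 1951 in the other 3 libraries.

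In complexes III and IV, mt-Cytb had 108765 and 126933 CPM in the WT and 80487 and 117144 CPM in the knockout libraries, and mt-Co1 had 212042 and 246323 CPM in the WT and 142430 and 225632 CPM in the knockout libraries. Zbp1-KO 1 was again the lowest in both, the groups overlapped, and the log2 fold changes were −0.25 ± 0.21 and −0.32 ± 0.23 (SE). mt-Co2, which carries the copper site that receives electrons from cytochrome c, had 2848 and 2789 CPM in the WT and 1113 and 3503 CPM in the knockout libraries, the highest and the lowest value both being in Zbp1-KO. Its log2 fold change of −0.29 ± 0.38 was −1.34 without Zbp1-KO 2 and 0.31 without Zbp1-KO 1. mt-Co3 had 1826 and 1851 CPM in the WT and 831 and 1643 CPM in the knockout libraries, with separate groups and a log2 fold change of −0.57 ± 0.27 (SE, unadjusted p = 0.0533, adjusted p = 0.999 in the edgeR test). Adding Gm28437 gave −0.13 ± 0.20 for mt-Co3, and adding Gm28661 gave −0.31 ± 0.24 for mt-Co2. The part of the copies in these differences was not tested beyond these sums.

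The rRNA genes were the only long mt- genes with a positive log2 fold change. mt-Rnr1 had 4246 and 6959 CPM in the WT and 5174 and 8000.0 CPM in the knockout libraries and mt-Rnr2 had 6673 and 11681 CPM in the WT and 7155 and 12117 CPM in the knockout libraries. In both, WT 1 and Zbp1-KO 1 were lower than WT 2 and Zbp1-KO 2, and the groups overlapped. The log2 fold changes were 0.23 ± 0.26 and 0.070 ± 0.29 (SE), and both turned negative when WT 1 or Zbp1-KO 2 was left out.

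**Figure D4:**
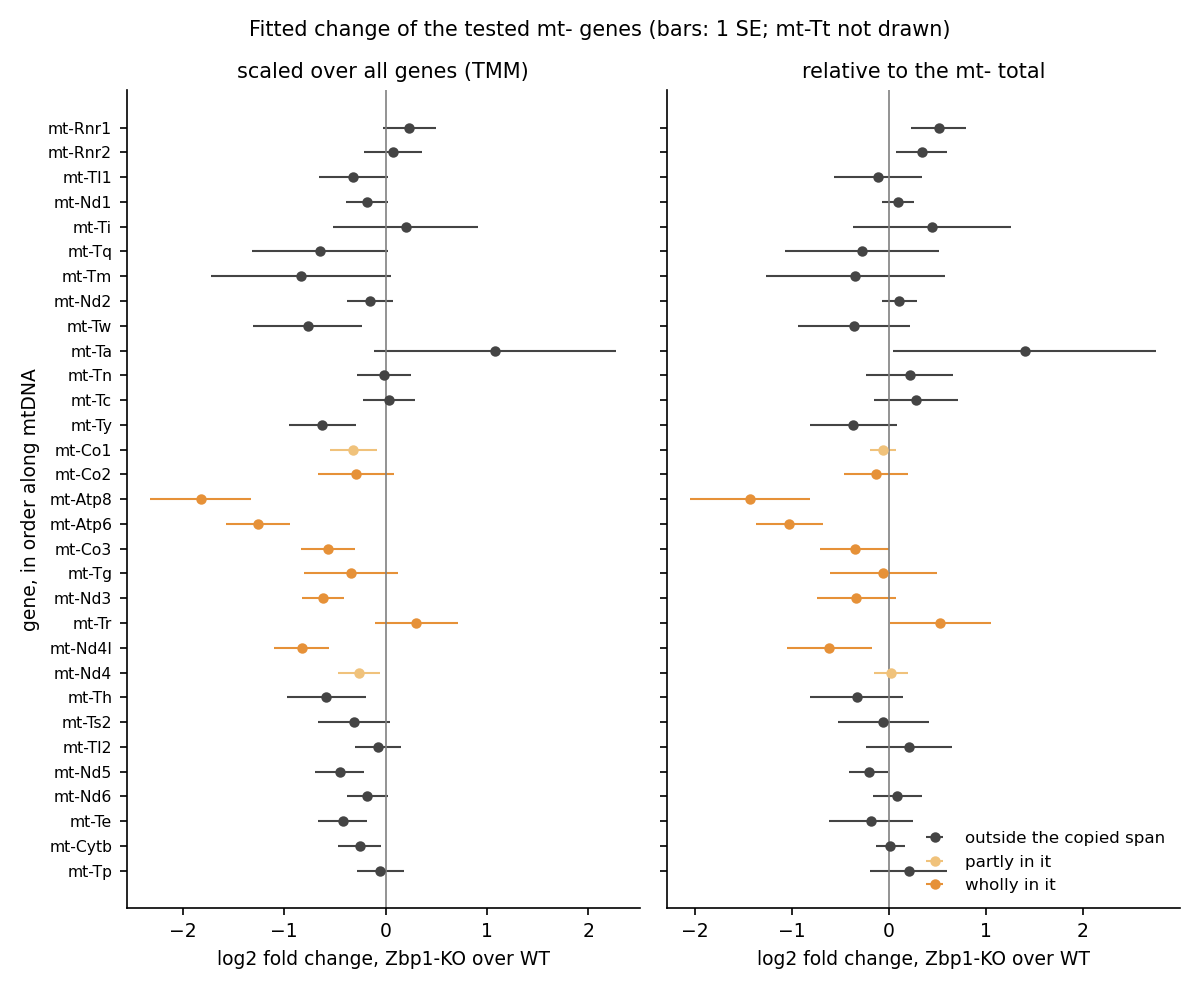
Log2 fold change of Zbp1-KO over WT for 31 of the 32 tested mt- genes in their order along mtDNA, with bars of 1 SE, scaled over all genes (left) or relative to the mt- total (right). mt-Tt, at 0 counts in both Zbp1-KO libraries, is not drawn. mt-Atp8 and mt-Atp6 lie farthest to the left in both panels, at −1.82 and −1.26 on the left and −1.43 and −1.03 on the right.

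The make-up of the mitochondrial RNA was examined by setting the mt- total of each library as its library size. Of the 32 genes, 0 were called, where 0.0671% of all genes were called. Leaving out mt-Tt and the other genes that passed the filter through 1 genotype alone, an unadjusted p under 0.05 with a lower value in Zbp1-KO was found for 2 of 31 mt- genes and for 0.295% of all genes. They were mt-Atp6 (−1.03 ± 0.35 on the log2 scale, SE; unadjusted p = 0.00283, adjusted p = 0.812 in edgeR) and mt-Atp8 (−1.43 ± 0.62, unadjusted p = 0.0200). This scaling moved the median of all tested genes to 0.31 on the log2 scale. For the 31 mt- genes the signs were mixed, with 14 higher and 17 lower and a median of −0.060. The 7 mRNA genes with sequence outside the copied span ranged from −0.21 ± 0.20 for mt-Nd5 to 0.11 ± 0.18 for mt-Nd2. mt-Rnr1 stood at 0.51 ± 0.28 and mt-Rnr2 at 0.34 ± 0.26.

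As shares of all mt- counts, mt-Atp6 took 0.413 and 0.542% in the WT and 0.191 and 0.276% in the knockout libraries, mt-Co3 0.314 and 0.272% in the WT and 0.199 and 0.260% in the knockout libraries and mt-Nd5 7.001 and 6.49% in the WT and 5.49 and 6.16% in the knockout libraries. In these 3 genes both Zbp1-KO shares were below both WT shares. The same held for 8 of the 31 mt- genes in all, the others being mt-Co1, mt-Atp8, mt-Nd3, mt-Nd4l and mt-Te, while both Zbp1-KO shares were above both WT shares for 7 (mt-Rnr1, mt-Nd2, mt-Ta, mt-Tc, mt-Tl2, mt-Tr and mt-Tp), and the groups overlapped for 16. Of all genes, counted in the same way and on the same scale, which moved their median up, 3.54% were below and 25.0% above. mt-Nd2 took 8.85 and 9.33% in the WT and 9.68 and 9.89% in the knockout libraries. mt-Co1 alone took 36.4 and 36.3% in the WT and 34.1 and 35.7% in the knockout libraries, also without overlap, and mt-Cytb took 18.7 and 18.7% in the WT and 19.3 and 18.5% in the knockout libraries. The rRNA genes together took 1.88 and 2.74% in the WT and 2.95 and 3.18% in the knockout libraries, and both Zbp1-KO libraries were higher than both WT libraries, although mt-Rnr2 alone overlapped. All 6 mRNA genes wholly in the copied span took 1.32 and 1.32% in the WT and 0.733 and 1.16% in the knockout libraries (1.32 ± 0.00280% against 0.948 ± 0.305%, SD, n = 2 each). The WT libraries were close to each other and the Zbp1-KO libraries were not.

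Of 5 ratios between groups of mt- genes, formed from levels per length, none could pass 0.05 with 2 libraries per genotype (smallest adjusted p = 0.417, two-sided exact permutation test). The ratio of rRNA to mRNA was 0.0187 and 0.0275 in the WT and 0.0299 and 0.0321 in the knockout libraries, and that of complex I to complex IV genes was 1.54 and 1.52 in the WT and 1.75 and 1.57 in the knockout libraries. In both the Zbp1-KO libraries were higher than both WT libraries. The ratio of mt-Rnr2 to mt-Rnr1 was 0.949 and 1.013 in the WT and 0.835 and 0.914 in the knockout libraries, lower in both Zbp1-KO libraries. As a fraction of the summed levels, light-strand genes made up 0.0774 and 0.0696 in the WT and 0.0779 and 0.0782 in the knockout libraries, higher in both Zbp1-KO libraries, and tRNA genes 0.0324 and 0.0338 in the WT and 0.0335 and 0.0374 in the knockout libraries, with overlap. Of all mt- counts, light-strand genes took 2.296 and 1.917% in the WT and 2.302 and 2.176% in the knockout libraries, with overlap.

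The tRNA genes, of 59 to 75 bases, are each shorter than a read of 150 bases, and of the mt- counts they took 0.184 and 0.191% in the WT and 0.192 and 0.213% in the knockout libraries in all. The sequences of 3 of them are given in lower case throughout: mt-Tp (tRNA for proline), which had the highest level, its neighbour mt-Tt (threonine), which was at 0 in Zbp1-KO, and mt-Tf (phenylalanine), which had 0 counts in all 4 libraries.
mt-Tp: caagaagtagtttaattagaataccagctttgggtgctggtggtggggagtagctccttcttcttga
mt-Tt: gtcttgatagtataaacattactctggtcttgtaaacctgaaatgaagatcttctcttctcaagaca
mt-Tf: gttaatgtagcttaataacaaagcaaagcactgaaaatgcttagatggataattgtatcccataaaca
mt-Tt lies at chrM:15289-15355 on the plus strand, mt-Tp adjoins it at chrM:15356-15422 on the minus strand, and mt-Tf lies at chrM:1-68 on the plus strand. mt-Tp had 6875 and 7861 counts in the WT and 6110 and 6800 in the knockout libraries, with a log2 fold change of −0.051 ± 0.23 (SE) and overlapping groups. mt-Te (glutamate) had 2370 and 2385 counts in the WT and 1444 and 1748 in the knockout libraries, lower in both Zbp1-KO libraries on the CPM scale, with a log2 fold change of −0.42 ± 0.24 (SE, unadjusted p = 0.108 in the edgeR test), and mt-Tc (cysteine) had 1401 and 1650 counts in the WT and 1270 and 1548 in the knockout libraries, with 0.035 ± 0.25. These 3 genes, all on the light strand, had the highest levels per length among the tRNA genes. The 8 light-strand tRNA genes had 2926 and 2998 counts per kilobase in WT, on the same scale, and 3063 and 3398 in Zbp1-KO. The 14 heavy-strand tRNA genes had 246 and 275 for WT and 251 and 280.2 in Zbp1-KO. Reads from the opposite strand cannot be told apart here. How pairs that reach into a neighbouring gene were counted is not given in the sources used here. Such pairs may be missing from tRNA genes of either strand.

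Of the heavy-strand tRNA genes, mt-Tl2 (leucine) had 597 and 717 counts in the WT and 583 and 564 in the knockout libraries, and mt-Tl1, the other leucine tRNA gene, had 371 and 391 counts in the WT and 200 and 338 in the knockout libraries. Their log2 fold changes were −0.078 ± 0.23 and −0.32 ± 0.34, with overlap in both. mt-Tn (asparagine) and mt-Ty (tyrosine), on the light strand, had −0.015 and −0.62, mt-Ts2 (serine) and mt-Th (histidine) −0.31 and −0.58, and mt-Tr (arginine) and mt-Tg (glycine), both in the copied span, 0.30 and −0.34. The 4 remaining tRNA genes with at least 100 counts over the 4 libraries, mt-Tw, mt-Tq, mt-Ti and mt-Tm, had 7 to 112 counts per library and log2 fold changes of −0.83 to 0.20. None of these 12 genes gave an unadjusted p under 0.05. mt-Tt had 26 and 11 counts in the WT and 0 in both knockout libraries. Its WT mean, 1.52 CPM, was 5.57-fold the mean limit of the Zbp1-KO libraries, 0.272 CPM at 3 counts per library. That ratio is not a smallest difference, since it leaves out the spread between the WT libraries (2.09 and 0.941 CPM). No p is given for mt-Tt, since its WT counts alone brought it past the filter. The 6 other genes under 100 counts, mt-Tf, mt-Tv, mt-Ts1, mt-Td, mt-Tk and mt-Ta, ranged from 0 to 32 counts per library, and 5 of them were too low to be tested. Among these, mt-Ts1 had 4 and 13 counts in the WT and 0 in both knockout libraries. Its WT mean was 2.63-fold the mean of the same limits. WT 1 alone, at 0.322 CPM, lay no higher than the limit of Zbp1-KO 2 (0.323 CPM), so no smallest difference can be given.

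Nuclear genes of the same complexes were counted for comparison. Of 78 tested nuclear subunit genes of complexes I to V, 0 were called, 35 had a positive and 43, Cox6a2 included, a negative log2 fold change, and the median was −0.025. The medians by complex were 0.027 for complex I, −0.11 for complex II, which has no mtDNA-encoded subunit, −0.052 for complex III, −0.012 for complex IV and −0.083 for complex V. Sdha, the flavoprotein of complex II, had 128 and 135 CPM in the WT and 142 and 109 CPM in the knockout libraries. Cox6a2, the muscle form of a complex IV subunit, had 0.965 and 1.03 CPM in the WT and 0 and 0 CPM in the knockout libraries, near the limit of detection. It passed the filter through the WT libraries alone, so it could only come out lower and no p is given for it. No other gene of the 78 had an unadjusted p under 0.05.

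Genes that maintain mtDNA and make or keep its transcripts were not called either. Over the 5 lists of replication, transcription, RNA processing, RNA stability and RNA modification, 0 of 54 tested genes were called and the median log2 fold change was −0.046. Polrmt, the mitochondrial RNA polymerase, had 32.5 and 29.6 CPM in the WT and 20.9 and 23.2 CPM in the knockout libraries, lower in both Zbp1-KO libraries, with a log2 fold change of −0.49 ± 0.23 (SE, unadjusted p = 0.0495, adjusted p = 0.999 in the edgeR test). It was the only one of the 54 with an unadjusted p under 0.05, and 5 of the 6 genes of the transcription list had a negative value. Of all 14908 genes tested in the same way, 578 had an unadjusted p under 0.05 and 50.6% had a negative value. Tfam, which packages mtDNA and activates its promoters, had 15.04 and 10.01 CPM in the WT and 16.9 and 16.9 CPM in the knockout libraries, higher in both Zbp1-KO libraries (0.43 ± 0.30). The mtDNA polymerase Polg and the helicase Twnk had log2 fold changes of −0.20 ± 0.24 and 0.20 ± 0.29. Lrpprc, which stabilizes mt- mRNAs together with Slirp, had 21.2 and 23.9 CPM in the WT and 26.5 and 24.5 CPM in the knockout libraries, also higher in both Zbp1-KO libraries (0.18 ± 0.23), while Slirp was near the detection limit at 0.342 to 1.99 CPM. Ppargc1a, a coactivator of mitochondrial biogenesis, had 31.4 and 33.3 CPM in the WT and 32.6 and 34.4 CPM in the knockout libraries. The 10 genes used for mitochondrial mass had a median of 0.048, with overlapping sums.

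**Figure D5:**
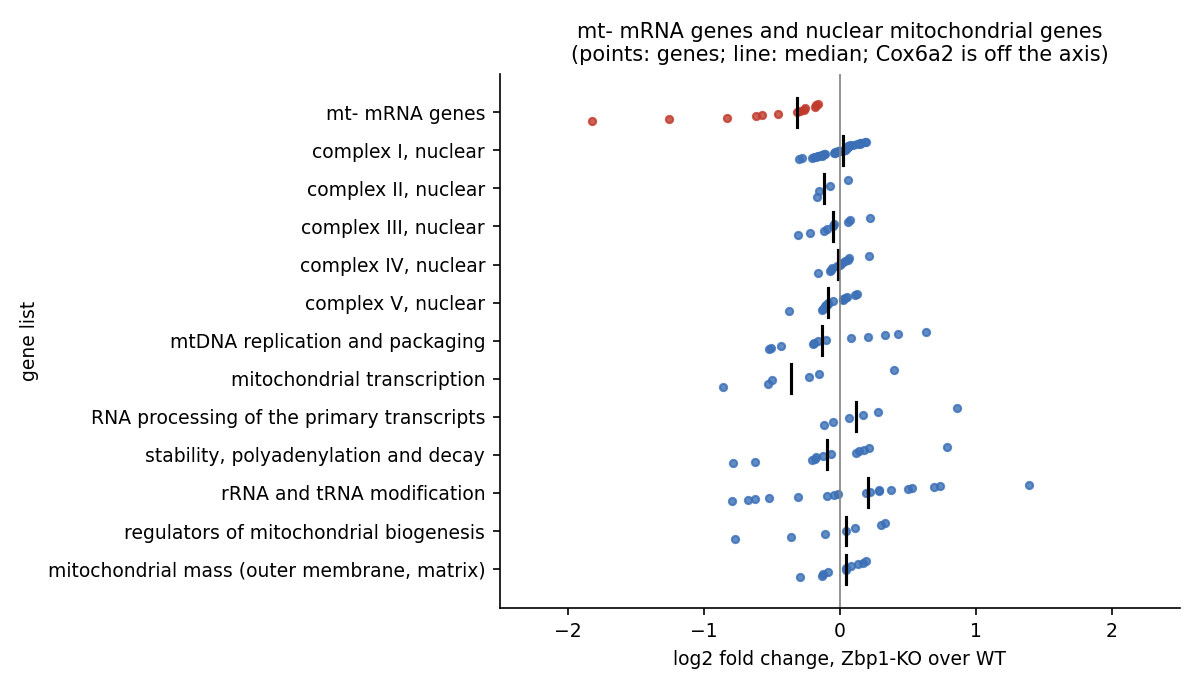
Log2 fold change of Zbp1-KO over WT for the 13 mt- mRNA genes (red) and for nuclear genes of mitochondrial lists (blue), with 1 point per gene and a line at the median; Cox6a2 lies outside the axis. All 13 mt- mRNA genes lie below 0 on this scale, 8 of them also relative to the mt- total, while the medians of the nuclear lists run from −0.36 to 0.21.

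The cell type lists gave the following sums, scaled to 1000000 counts on genes outside mtDNA. The 8 proximal tubule markers summed to 24606 and 17336 in the WT and 25279.9 and 20445 in the knockout libraries, with 0 called and overlapping groups, and all 8 were detected. Kap, an androgen-regulated gene of this segment, made up 75.4% to 87.2% of that sum. Without Kap, left out after the values were seen, the other 7 markers summed to 4152 and 4266 in the WT. In the knockout libraries they summed to 3230.2 and 4149. Zbp1-KO 2 was thus almost equal to WT 1, and only Zbp1-KO 1 stood apart. Of the 8 markers, 5 had a negative log2 fold change and the median was −0.26. They included the phosphate transporter Slc34a1 (−0.36 ± 0.26), the glucose transporter Slc5a2 (−0.61 ± 0.51) and the organic anion transporter Slc22a6 (−0.49 ± 0.22, SE, unadjusted p = 0.0479, adjusted p = 0.999 in the edgeR test). The markers with a positive value were Kap (0.19 ± 0.24), Lrp2 (0.17 ± 0.19) and Aqp1 (0.0039 ± 0.24). The thick ascending limb (4 markers), distal convoluted tubule (4), endothelium (5) and leukocyte (8, of which 5 were tested) lists also had 0 called and overlapping sums. The 6 collecting duct markers summed to 2542 and 2908 in the WT and 2097 and 1571 in the knockout libraries, lower in both Zbp1-KO libraries, with 0 called. Most of that sum was Aqp2 (log2 fold change −0.64 ± 0.20, SE), which like Aqp3 (−0.58 ± 0.23) was lower in both. Atp6v1g3 was lower by less (−0.15 ± 0.20), and Scnn1g, Slc4a1 and Slc26a4 overlapped, Slc4a1 with a positive value. The 5 podocyte markers summed to 236 and 244 in the WT and 301 and 348 in the knockout libraries, higher in both Zbp1-KO libraries. Of the 5 fat markers 1, Cfd, was called higher in Zbp1-KO (log2 fold change 2.20 ± 0.23, SE), where 0.0134% of all genes were called. Adipoq (1.91 ± 0.61) and Fabp4 (0.51 ± 0.21) were higher in both Zbp1-KO libraries but not called. Plin1 passed the filter through the Zbp1-KO libraries alone, so it could only come out higher. The list summed to 182 and 243 in the WT and 493 and 395 in the knockout libraries, with Lep at 0 in all 4 libraries. The 5 blood markers summed to 5909.6 and 1923 in the WT and 1918 and 4918 in the knockout libraries, which overlapped but spread widely within each genotype. The part of these cell types in the mt- values was not tested.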

How the data were processed

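Polyadenylated RNA of 4 mouse kidney samples was sequenced by the authors as pairs of 150-base reads, trimmed with Trimmomatic, aligned with HISAT2 to mm10 (builds and tools per the submitters' processing notes) and, for uniquely mapped pairs only, counted per gene with featureCounts. Program versions, annotation release and strand setting are not given in the sources used here. The deposited values are raw counts per Ensembl gene, 1 file per library, and 54495 of 54532 IDs matched GENCODE M21. Groups and replicate numbers came from the sample titles.

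Counts were tested in edgeR 4.0.16 (R 4.3.3) by the two-sided quasi-likelihood F test (glmQLFit, glmQLFTest), with TMM scaling and genes kept by filterByExpr at a count of at least 10 and a total of at least 15, with genotype as the only term and Benjamini-Hochberg adjustment over 14908 genes. An adjusted p under 0.05 made a call. SE is the absolute log2 fold change (prior count 0.125) divided by the square root of F. Another fit used the mt- total as library size. Nuclear copies were searched for among GENCODE M21 transcripts with blastn 2.17.0 (identity of at least 90%); a genome sequence was not used here. Single values per library were compared by exact permutation tests. Alternatives were other scaling, no filter, the exact test, DESeq2 1.42.0, the replicate block and left-out libraries; summing genes with their copies and restricting to genes or lengths outside the copied span, leaving out genes that passed the filter through 1 genotype alone and leaving out Kap were chosen after seeing the data. Named were Zbp1, all mRNA and rRNA genes, tRNA genes with at least 100 summed counts, and nuclear copies with at least 10 counts. Fixed partner genes were named together with members of the nuclear mitochondrial lists at an unadjusted p under 0.05 in edgeR and separate groups. This rule was not applied to the cell type lists. The genes mt-Tt and mt-Ts1 and the fat, proximal tubule and collecting duct markers were named after their values were seen. Members and lists were chosen with earlier results of these data known. Duplicate reads could not be told from separate molecules, so intervals cover counting error only.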

Additional observations from a re-analysis of the deposited data

How the results depend on the processing

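The number of mt- genes called was 0 with median-of-ratios or upper quartile factors, library totals alone, TMM from genes other than mt- genes, the exact test, DESeq2 and the copies' counts added. It was 2 when every gene with 1 count or more was kept (mt-Atp6 and mt-Nd4l) and 0 to 3 with 1 library left out, the 3 being called without Zbp1-KO 2. Over all genes, 2 were called in the main analysis, 1 with library totals alone, 41 when every gene with 1 count or more was kept, 14 with the exact test, 9 with DESeq2, 11 with the replicate block and 0 to 15 with 1 library left out. Libraries that share a replicate number did not deviate together as a whole (correlation −0.00595), but this single value does not settle pairing for the mt- genes. The mt- share was lower in library 1 than in library 2 of both genotypes (57.4 and 61.5% for WT, 49.5 and 59.5% for Zbp1-KO). With the replicate number as a block, 1 mt- gene was called (mt-Atp6, log2 fold change −1.33, adjusted p = 0.000273 in edgeR). An unadjusted p under 0.05 was then found for 9 of the 13 mRNA genes, against 4 in the main analysis. Pairing among the mt- genes was not tested separately. Relative to the mt- total, 0 mt- genes were called under the alternatives that kept all 4 libraries. The difference in the mt- share ranged from −9.96 to 0.0128 percentage points with 1 library left out. A left-out library leaves its genotype with 1, which is assumed to vary like the others. The cause of these changes was not tested.

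Of 416 log2 fold changes of single mt- genes under alternatives, 27 turned direction. With library totals alone these were mt-Tn (0.10), mt-Tl2 (0.070) and mt-Tp (0.083), and with the replicate block mt-Tc (−0.012). With 1 library left out, the ranges of the genes that turned were −0.11 to 0.63 for mt-Rnr1, −0.36 to 0.53 for mt-Rnr2, −1.10 to 0.20 for mt-Tl1, −0.44 to 0.031 for mt-Nd1, −0.41 to 0.64 for mt-Ti, −0.51 to 0.12 for mt-Nd2, −0.51 to 0.36 for mt-Tn, −0.44 to 0.39 for mt-Tc, −1.34 to 0.31 for mt-Co2, −0.75 to 0.22 for mt-Tg, −0.23 to 0.70 for mt-Tr, −0.88 to 0.11 for mt-Ts2, −0.35 to 0.15 for mt-Tl2, −0.45 to 0.049 for mt-Nd6 and −0.44 to 0.26 for mt-Tp. Depth limits the tRNA genes, of which 7 had under 100 counts over the 4 libraries.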
